A study of Mus musculus with 31 samples.

Results

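The comparison set endothelium taken directly from the mouse conceptus against the mesoderm from which endothelium arises. Endothelium is the cell layer that lines blood and lymphatic vessels. It was represented by 4 RNA-seq libraries of cells sorted from mouse embryos of stage E11.5 (a mid-gestation stage, counted in days) as positive for VE-cadherin (the protein of Cdh5) and Pecam1: 2 libraries from the yolk sac, the membrane outside the embryo in which the earliest vessels and blood form, and 2 from the embryo itself. These cells were not cultured and went straight into lysis. Mesoderm was represented by 3 libraries of cells made in culture from the embryonic stem (ES) cell lines RB2, RB3 and RB4. The ES cells spent 4 days on Matrigel in N2B27 medium, to which Activin A at 4 ng/mL, the Wnt pathway activator CHIR99021 at 3 µM, BMP4 at 5 ng/mL and FGF2 at 12.5 ng/mL were added after the first 2 days. Cells positive for Kdr were then sorted. Thus 7 of the 31 libraries of the series entered the comparison. The sources used here name no strain, sex or genetic change for the embryos. They do not say whether the libraries of a source came from separate litters, so p-values measure the spread between these libraries, which may be partly technical. Stage, tissue, sort and culture differ together between endothelium and mesoderm, and their shares of any difference cannot be told apart.

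During gastrulation, cells leaving the primitive streak form mesoderm, and a fraction of it that carries Kdr, the main receptor for VEGF, goes on to make endothelium and blood. Commitment runs through a brief pulse of the ETS factor Etv2, after which related ETS factors, SoxF factors and the Tal1, Lmo2 and Gata2 complex keep the endothelial programme active. At mid-gestation the endothelium of the yolk sac and of the embryo is already divided into arterial, venous and, in the embryo, lymphatic types, and some endothelial cells still produce blood.

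Total expected counts were 24221267 and 26220764 in yolk sac endothelium, 30400302 and 23548227 in embryo endothelium and 23398047, 26586369 and 32791629 in mesoderm, and 14499 to 15643 genes per library had at least 1 count. Each of 14391 genes was tested in a single fit, yolk sac against mesoderm and embryo against mesoderm, and a gene was taken as higher or lower in endothelium only where both sources passed an adjusted p of 0.05 in the same direction. All levels below are deposited TPM (a level corrected for transcript length and depth). Log2 fold changes are endothelium over mesoderm, with the standard error after ± and the yolk sac value before the embryo value. In yolk sac 36.3% of genes were higher and 32.3% lower than in mesoderm, and in embryo 32.3% were higher and 28.1% lower. By the rule on both sources 4038 genes (28.1% of those tested) were higher in both sources and 3336 (23.2%) were lower in both, while 194 (1.35%) moved in opposite directions in the sources and 3438 (23.9%) passed in 1 source only. Of the 4038 genes higher in both, 1500 had a mean log2 fold change of 3 or more and 229 were at 0 TPM in all mesoderm libraries. Of the 3336 lower in both, 712 reached that size and 45 were at 0 TPM in all endothelial libraries. The median log2 fold change of all genes tested was 0.03. In TPM, all 4 endothelial libraries lay above all 3 mesoderm libraries for 37.9% of the genes tested and below them for 22.8%. So many genes passed that the share of a gene list that passed is to be read against these percentages. The same holds for a lack of overlap between the groups.

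**Figure D1:**
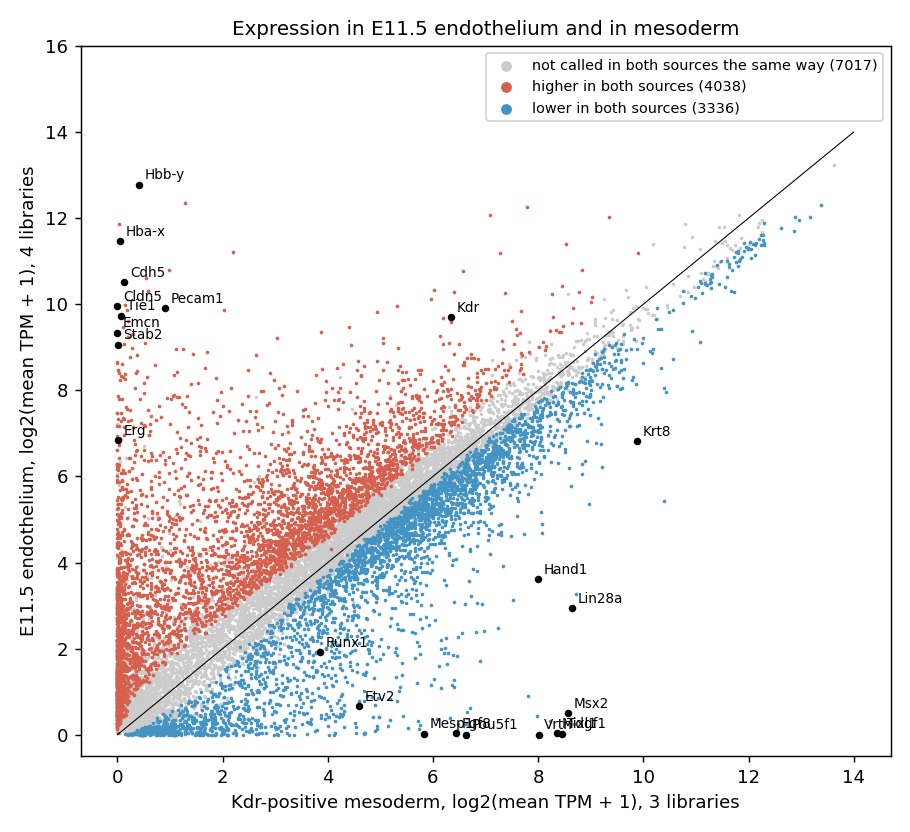
Each point is 1 of the 14391 genes tested. The vertical axis is log2(mean TPM + 1) over the 4 libraries of E11.5 endothelium and the horizontal axis the same over the 3 libraries of Kdr-positive mesoderm. Red genes (4038) were higher and blue genes (3336) lower in both endothelial sources. Endothelial and globin genes lie along the left edge, at or near 0 TPM in mesoderm, and streak and pluripotency genes along the bottom edge.

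The labels were checked against marker genes of 12 cell types. The summed level of 9 endothelial markers (Tek, Tie1, Emcn, Esam, Cldn5, Egfl7, Robo4, Icam2 and Cd93) was 6468 and 6091 TPM in yolk sac, 5362 and 5831 TPM in embryo and 85.5, 51.1 and 59 TPM in mesoderm. That of 7 early mesoderm markers was 139 and 112 TPM in yolk sac, 12.9 and 19.7 TPM in embryo and 1091, 1105 and 993 TPM in mesoderm, and that of 5 ES cell markers 2.35 and 1.79 TPM in yolk sac, 3.23 and 4.53 TPM in embryo and 149, 118 and 84.8 TPM in mesoderm. Transcripts of other cell types were also measured in the endothelial libraries. The 6 macrophage markers summed to 213 and 405 TPM in yolk sac, 209 and 284 TPM in embryo and 0.203, 1.12 and 0.276 TPM in mesoderm. The 5 red cell markers summed to 299 and 608 TPM in yolk sac, 129 and 1386 TPM in embryo and 1.17, 1.17 and 0.888 TPM in mesoderm, and globin genes took 0.235% and 0.542% of counts in yolk sac, 0.12% and 1.53% in embryo and at most 0.0002% in mesoderm. The 5 visceral endoderm markers, of the outer epithelium of the yolk sac, summed to 10060 and 9791 TPM in yolk sac, 9.84 and 4.67 TPM in embryo and 1.62, 1.05 and 1.74 TPM in mesoderm. The yolk sac libraries were far above the embryo libraries for these. Both sources held macrophage and red cell transcripts near 0 in mesoderm. The 5 mesenchyme markers were likewise high in the yolk sac libraries alone, at 1129 and 1066 TPM in yolk sac, 26.5 and 43 TPM in embryo and 71.9, 23.2 and 21 TPM in mesoderm. The labels of the sort name no exclusion of CD45-positive cells. The part of such cells in any result was not tested, and fewer cells of a type and less RNA per cell cannot be told apart in these data.

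**Figure D2:**
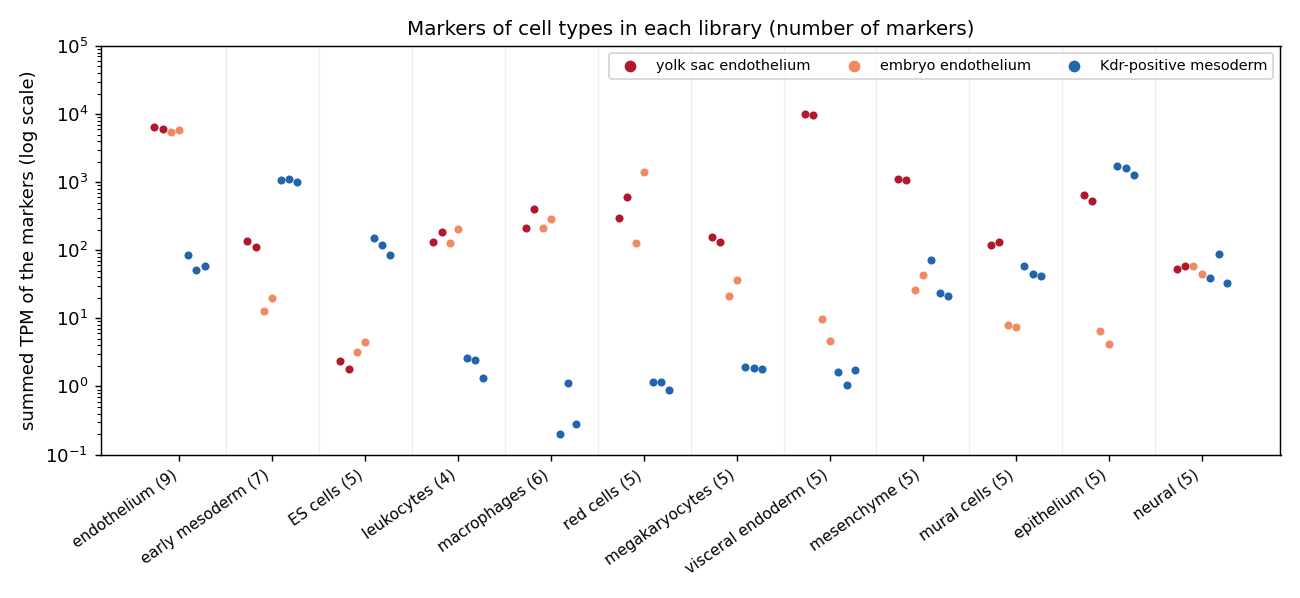
Summed TPM (log scale) of the markers of 12 cell types in each library, with the number of markers in parentheses. Red points are the yolk sac libraries, orange the embryo libraries and blue the mesoderm libraries. Endothelial markers lie between 5362 and 6468 TPM in the endothelial libraries, and visceral endoderm markers at 9791 and 10060 TPM in the yolk sac libraries only.

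The sorting antigens describe the sort and are not a result. Cdh5 had 1826 and 1410.3 TPM in yolk sac endothelium, 1079 and 1509 TPM in embryo endothelium and 0.122, 0.132 and 0.031 TPM in mesoderm. Pecam1 had 1149 and 956 TPM in yolk sac, 796 and 948 TPM in embryo and 1.22, 0.896 and 0.49 TPM in mesoderm. Kdr, on which the mesoderm was sorted, had 1154 and 798 TPM in yolk sac, 528 and 834 TPM in embryo and 54.2, 89.6 and 95.9 TPM in mesoderm. Cdh5 and Pecam1 were at trace levels in mesoderm, whereas Kdr transcripts were clearly present there and still lower than in any endothelial library. The leukocyte antigen gene Ptprc (CD45) had 4.92 and 7.1 TPM in yolk sac, 1.38 and 3.07 TPM in embryo and 0, 0.02 and 0.01 TPM in mesoderm.

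Of 30 genes expressed throughout endothelium, with the sorting antigens left out, 29 were higher in both sources and none was lower, with a median log2 fold change of 10. Cldn5, the tight junction protein of endothelium, had 1122 and 1014 TPM in yolk sac endothelium, 941 and 868 TPM in embryo endothelium and 0, 0 and 0 TPM in mesoderm. With no count in mesoderm its difference is a lower bound, at least 18677-fold in yolk sac and at least 17078-fold in embryo, set against a floor of 3 counts over the mesoderm group. The 4 endothelial libraries were close to each other and every mesoderm library was at 0. Emcn, a sialomucin of venous and capillary endothelium, had 413 and 458 TPM in yolk sac, 927 and 795 TPM in embryo and 0, 0 and 0 TPM in mesoderm, at least 7851-fold higher in yolk sac and at least 16634-fold higher in embryo. The angiopoietin co-receptor gene Tie1 had 969 and 841 TPM in yolk sac, 671 and 927 TPM in embryo and 0.081, 0.041 and 0.031 TPM in mesoderm. The log2 fold change of Tie1 was 13.90 ± 0.32 in yolk sac and 13.77 ± 0.32 in embryo (adjusted p = 1.5e-09 and 2.7e-09). The groups did not overlap for either gene, and Emcn differed between the sources too, being lower in yolk sac than in embryo. Clec14a, a C-type lectin of angiogenic endothelium, had 599 and 569 TPM in yolk sac, 125 and 125 TPM in embryo and 0, 0.02 and 0 TPM in mesoderm. Its mesoderm level rests on 1 library, and yolk sac was higher than embryo (log2 difference 2.16 ± 0.20, adjusted p = 5.0e-05).

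The level of a pan-endothelial gene in mesoderm varied widely within the list. Robo4, a guidance receptor that stabilises vessels, had 358 and 323 TPM in yolk sac, 226 and 359.8 TPM in embryo and 0.02, 0.143 and 0.051 TPM in mesoderm. Plvap, the diaphragm protein of fenestrated capillaries, had 3495 and 3092 TPM in yolk sac, 1348 and 1601 TPM in embryo and 3.72, 3.49 and 3.46 TPM in mesoderm. Plvap was detected in mesoderm at a few TPM and did not overlap between the groups. Egfl7, a secreted factor of the vessel wall, had 1239.5 and 1356 TPM in yolk sac, 1186 and 1327 TPM in embryo and 84.7, 49.5 and 57.8 TPM in mesoderm. Eng, a BMP9 co-receptor, had 798 and 745 TPM in yolk sac, 544 and 743 TPM in embryo and 26.5, 14.3 and 19.4 TPM in mesoderm. Egfl7 and Eng were thus well expressed in mesoderm already, with log2 fold changes of 4.27 in yolk sac and 4.28 in embryo for Egfl7 and 4.97 in yolk sac and 4.76 in embryo for Eng, while Robo4 was barely detected there. Podxl, a sialomucin of the luminal surface, was the member that passed in neither source, at 288 and 212 TPM in yolk sac, 217 and 282 TPM in embryo and 285, 116 and 122 TPM in mesoderm; it passed in both without mesoderm library 1. Its ranges overlapped: mesoderm made from RB2 was as high as the higher yolk sac library. Between the sources, 8 of the 30 genes were higher in yolk sac and 1 in embryo, against 14.3% and 9.53% of all genes tested. Gpr182, an atypical receptor of sinusoidal endothelium, showed the widest gap, with 662 and 590.2 TPM in yolk sac, 62.5 and 74.7 TPM in embryo and 0.285, 0.448 and 0.133 TPM in mesoderm.

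Promoters of the leading genes are shown because ETS factors bind a GGAA core and many endothelial enhancers carry such sites. The windows run from 250 bases before to 50 bases after the gene's start, read 5′ to 3′ on the gene's strand from RefSeq on build GRCm38.p6. Capitals mark AGGAAG or its reverse complement CTTCCT.
Tie1, chr4:118489800-118490099, minus strand: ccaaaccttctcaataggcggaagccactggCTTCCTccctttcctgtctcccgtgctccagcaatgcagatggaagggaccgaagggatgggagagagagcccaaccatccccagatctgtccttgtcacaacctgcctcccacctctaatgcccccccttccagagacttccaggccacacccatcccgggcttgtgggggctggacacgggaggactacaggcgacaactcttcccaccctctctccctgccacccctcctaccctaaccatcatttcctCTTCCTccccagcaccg
Emcn, chr3:137340828-137341127, plus strand: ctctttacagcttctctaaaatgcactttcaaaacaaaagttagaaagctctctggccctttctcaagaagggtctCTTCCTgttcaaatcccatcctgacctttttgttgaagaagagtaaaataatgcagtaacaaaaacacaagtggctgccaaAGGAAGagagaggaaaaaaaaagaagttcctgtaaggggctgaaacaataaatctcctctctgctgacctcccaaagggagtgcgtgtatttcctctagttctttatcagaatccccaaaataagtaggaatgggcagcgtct
Robo4, chr9:37401722-37402021, plus strand: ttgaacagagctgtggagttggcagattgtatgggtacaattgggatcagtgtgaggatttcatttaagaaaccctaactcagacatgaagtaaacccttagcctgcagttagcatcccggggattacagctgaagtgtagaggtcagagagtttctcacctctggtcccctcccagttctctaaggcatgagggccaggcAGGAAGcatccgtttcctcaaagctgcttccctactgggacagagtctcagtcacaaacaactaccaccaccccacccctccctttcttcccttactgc
Cldn5, chr16:18776597-18776896, plus strand: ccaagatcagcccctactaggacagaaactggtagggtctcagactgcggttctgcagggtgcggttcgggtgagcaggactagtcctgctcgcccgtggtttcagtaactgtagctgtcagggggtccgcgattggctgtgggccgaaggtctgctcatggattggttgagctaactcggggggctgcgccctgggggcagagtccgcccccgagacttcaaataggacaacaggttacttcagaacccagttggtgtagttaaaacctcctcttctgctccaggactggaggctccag
Tie1 and Emcn held 2 such matches each, Robo4 held 1, and Cldn5 held none and no GGAA on either strand. A window was found for 16 of the 30 pan-endothelial genes, and 10 of these (62.5%) held AGGAAG on either strand, against 35.1% of all 27025 windows. Other letters searched were CCGGAAG, found in 0 of the 16 windows (9.12% of all), AGATAA, the GATA factor motif, found in 3 (11.4% of all), and TCACACCT and AATCCACA, motifs of T-box factors and FoxH1, found in 0 (1.27% and 0.873% of all). CCGGAAG and AGGAAG share the letters GGAAG but differ in the letter before them, so the same GGAAG cannot match both, although a window can hold both. Among all genes higher in both sources that had a window, 37.8% of 3008 held AGGAAG, and among those lower in both 29.9% of 2513 did. The order was the reverse for CCGGAAG, found in 11.1% of the windows higher in both and 21.2% of those lower in both. A match says only that the letters are present in the window.

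Transcription factors of endothelium separated the groups in both directions. Of 26 ETS, SoxF, Gata and partner factors, 24 were higher in both sources and 1 was lower, with a median log2 fold change of 4.55. Erg, the ETS factor that maintains endothelial identity, had 139 and 99.1 TPM in yolk sac, 84.4 and 133 TPM in embryo and 0, 0.02 and 0.02 TPM in mesoderm. Sox18, a SoxF factor of vessels and lymphatics, had 401 and 368 TPM in yolk sac, 484 and 486 TPM in embryo and 0.193, 0.183 and 0.174 TPM in mesoderm. By the test, the log2 fold change of Sox18 was 10.71 ± 0.21 in yolk sac and 11.11 ± 0.21 in embryo (adjusted p = 1.3e-09 and 2.7e-09). Both were at or near 0 in mesoderm and above 80 TPM in all 4 endothelial libraries. Mef2c, a MADS-box factor downstream of ETS sites, had 22.8 and 19.4 TPM in yolk sac, 29.3 and 44.5 TPM in embryo and 0.01, 0.051 and 0.031 TPM in mesoderm. Nr2f2 (COUP-TFII), the factor of venous identity, had 28.4 and 26.9 TPM in yolk sac, 47.8 and 74.7 TPM in embryo and 0, 0.132 and 0.102 TPM in mesoderm. For Mef2c and Nr2f2 the embryo was higher than yolk sac, as for 9 of the 26 factors (9.53% of all genes tested). Of the 26, 1 was higher in yolk sac (14.3% of all genes tested).

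Etv2, the pioneer ETS factor of the hemangiogenic lineage, was the factor that was lower in both sources. It had 0.093 and 0 TPM in yolk sac endothelium, 1.1 and 1.14 TPM in embryo endothelium and 25.8, 21.6 and 22.3 TPM in mesoderm. All mesoderm libraries lay above 20 TPM and all endothelial libraries below 2 TPM, with the embryo higher than the yolk sac. The fitted log2 change of Etv2 was -9.11 ± 0.60 in yolk sac and -4.58 ± 0.38 in embryo (adjusted p = 5.4e-07 and 4.2e-06). Other factors of the same circuit were already present in mesoderm and higher in endothelium. Lmo2, the bridging protein of the Tal1 complex, had 127 and 131 TPM in yolk sac, 373 and 361 TPM in embryo and 8.12, 20.5 and 23.6 TPM in mesoderm. Gata2, a zinc finger factor of blood and vessels, had 65.7 and 56.5 TPM in yolk sac, 37.9 and 45.9 TPM in embryo and 6.11, 15.1 and 7.45 TPM in mesoderm. Fli1, an ETS factor of blood and vessels, had 71.5 and 67.9 TPM in yolk sac, 60.8 and 74.1 TPM in embryo and 0.702, 1.59 and 1.09 TPM in mesoderm. Lmo2 was higher in embryo than in yolk sac, and Gata2 and Fli1 passed no test between the sources. Tal1 itself had 41.2 and 37.9 TPM in yolk sac, 49.5 and 60.7 TPM in embryo and 0.804, 0.305 and 0.02 TPM in mesoderm. Mesoderm thus held measurable Lmo2 and Gata2 with little Tal1, and the groups did not overlap for any of these genes.

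**Figure D3:**
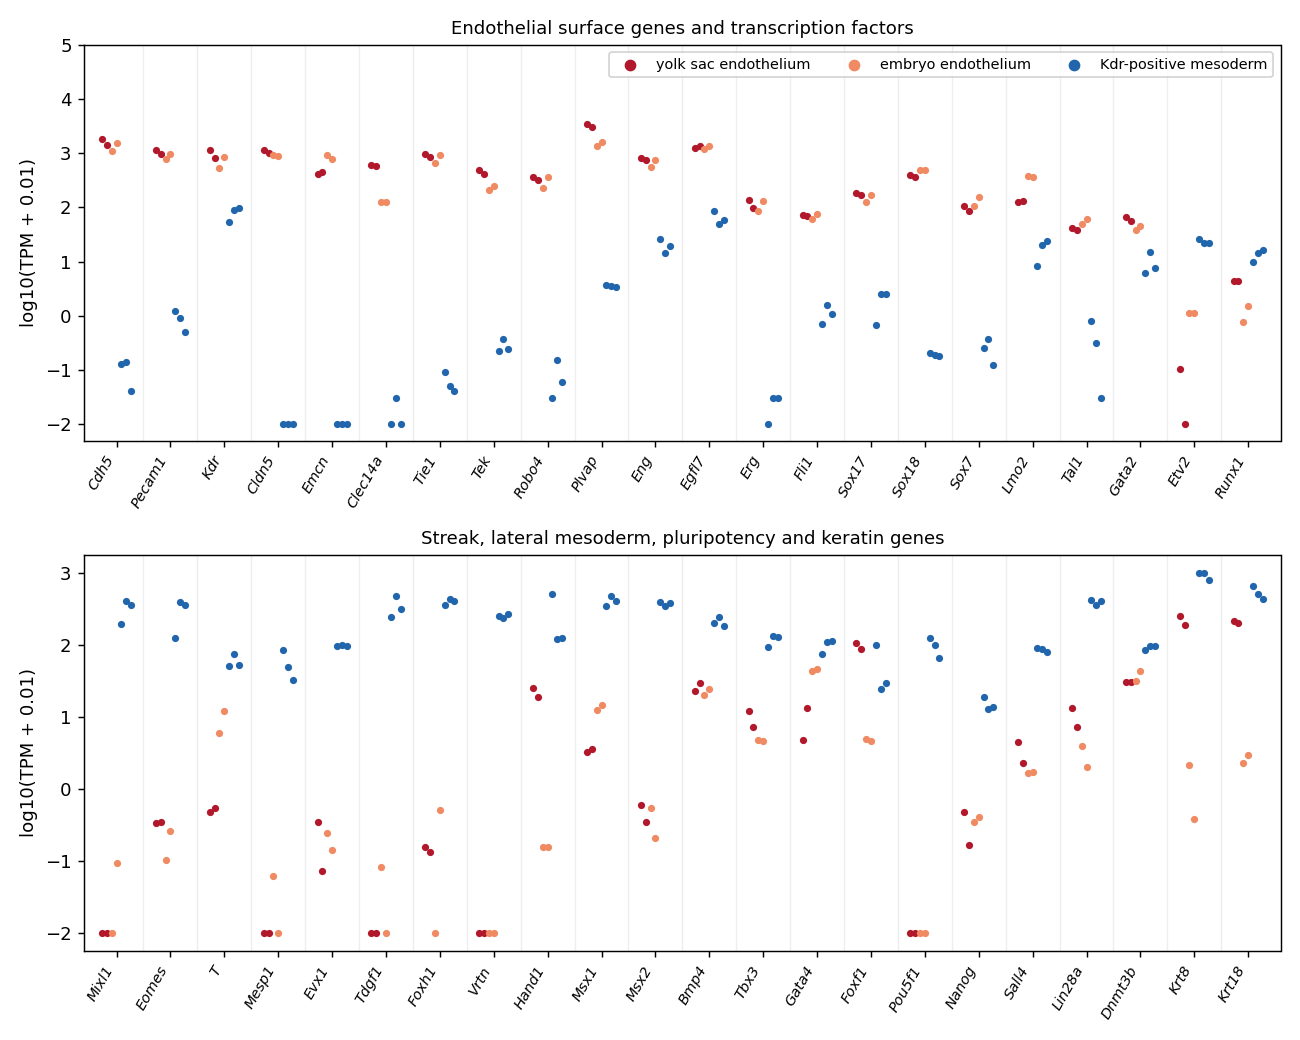
Levels per library as log10(TPM + 0.01), so that -2 stands for 0 TPM. Red points are yolk sac endothelium, orange embryo endothelium and blue Kdr-positive mesoderm. In the upper panel most genes lie above mesoderm in all 4 endothelial libraries, except Etv2 and Runx1, which lie below it. In the lower panel mesoderm lies above the endothelial libraries for the streak genes, and keratins are low in embryo endothelium and intermediate in yolk sac.

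VEGF receptors and ligands went different ways. Of 9 genes, 5 were higher in both sources and 3 were lower, with Vegfa in opposite directions and a median of 1.02. The receptor gene Flt4 (VEGFR3), which binds VEGF-C, had 257 and 179 TPM in yolk sac, 187 and 295 TPM in embryo and 1.07, 1.65 and 1 TPM in mesoderm. The decoy receptor gene Flt1 had 483 and 317 TPM in yolk sac, 125 and 199.6 TPM in embryo and 2.36, 1.16 and 1.35 TPM in mesoderm. Neither overlapped mesoderm. The ligand Vegfc was also higher, with 115 and 99.5 TPM in yolk sac, 28.1 and 36.1 TPM in embryo and 3.85, 10.6 and 11 TPM in mesoderm. Neuropilin 1 (Nrp1), a VEGF co-receptor, was higher by a smaller amount, with 254 and 166 TPM in yolk sac, 86 and 146 TPM in embryo and 21.9, 51.9 and 57.6 TPM in mesoderm, and its adjusted p for embryo was 0.016, a call lost without embryo library 2. The ligands Vegfb (-1.18 in yolk sac and -1.74 in embryo), Pgf (-2.07 in yolk sac and -1.96 in embryo) and Figf (VEGF-D) were lower. Figf had 0 and 0 TPM in yolk sac, 0.134 and 0.279 TPM in embryo and 0.692, 1.06 and 0.847 TPM in mesoderm and its call was lost without embryo library 1. Vegfa, the main ligand of Kdr, had 47.2 and 47.3 TPM in yolk sac, 6.46 and 14.2 TPM in embryo and 19.7, 20.7 and 13.7 TPM in mesoderm: higher in yolk sac and lower in embryo than in mesoderm.

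Of 6 genes of the Tie system 5 were higher in both sources and none was lower. The receptor Tek (Tie2) had 498 and 406 TPM in yolk sac, 209 and 246 TPM in embryo and 0.214, 0.367 and 0.235 TPM in mesoderm. Its phosphatase Ptprb (VE-PTP) had 217 and 142 TPM in yolk sac, 34.9 and 64.2 TPM in embryo and 1.3, 1.17 and 1.89 TPM in mesoderm, both without overlap and both higher in yolk sac than in embryo. The ligands Angpt1 (5.66 in yolk sac and 3.84 in embryo) and Angpt2 (3.85 in yolk sac and 3.39 in embryo) were also higher in both, at 0.90 to 13.7 TPM in endothelium. Angptl2, an angiopoietin-like factor, passed in embryo only. In the BMP and TGF-beta family the receptors were higher in endothelium. Acvrl1 (Alk1), the BMP9 receptor of endothelium, had 539.6 and 458 TPM in yolk sac, 171 and 198 TPM in embryo and 1.35, 1.11 and 1.08 TPM in mesoderm. The TGF-beta receptor Tgfbr2 had 422 and 310.3 TPM in yolk sac, 136 and 184 TPM in embryo and 2.69, 4.67 and 3.03 TPM in mesoderm. The co-receptor Tgfbr3 had 115 and 80.4 TPM in yolk sac, 21.4 and 29.7 TPM in embryo and 1.66, 2.47 and 3.2 TPM in mesoderm. Of the 21 genes in this list 10 were higher and 7 lower in both sources (median 1.09). All 7 receptors and co-receptors (Acvrl1, Eng, Bmpr2, Acvr1, Tgfbr1, Tgfbr2 and Tgfbr3) were among the higher genes, with Tgfb1, Id2 and Ltbp4. The lower genes were the ligands Bmp4 (-3.26 in yolk sac and -3.47 in embryo), Bmp2 (-1.20 in yolk sac and -1.39 in embryo), Bmp5 (-3.45 in yolk sac and -3.41 in embryo) and Bmp7 (-3.44 in yolk sac and -5.90 in embryo), the BMP modulator Bmper (-6.15 in yolk sac and -4.67 in embryo) and the inhibitors Smad6 (-0.98 in yolk sac and -1.18 in embryo) and Smad7 (-0.52 in yolk sac and -0.52 in embryo). The call of Bmp2 was lost without yolk sac library 1, and that of Smad7 without either yolk sac library, without embryo library 1 and with limma on TPM. Bmp4 had 23.1 and 30.2 TPM in yolk sac, 20.1 and 24.3 TPM in embryo and 202, 251 and 185 TPM in mesoderm. It was lower in every endothelial library than in any mesoderm library.

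Arterial and Notch genes were mostly higher in endothelium: 12 of 16 in both sources, with 3 lower and a median of 2.81. Gja5 (connexin 40), an arterial gap junction protein, had 681 and 572 TPM in yolk sac, 72.7 and 86.6 TPM in embryo and 0, 0 and 0.041 TPM in mesoderm. The Notch ligand Dll4 had 232 and 168 TPM in yolk sac, 87.3 and 138 TPM in embryo and 0.041, 0.061 and 0.051 TPM in mesoderm. The receptor Notch4 had 201 and 158 TPM in yolk sac, 103 and 198 TPM in embryo and 0.59, 0.927 and 0.786 TPM in mesoderm. Gja5 and Dll4 were at most 0.061 TPM in mesoderm, and yolk sac exceeded embryo for both. Gja4 (9.90 in yolk sac and 9.38 in embryo), Jag1 (4.87 in yolk sac and 4.18 in embryo) and Efnb2, the arterial ephrin (1.97 in yolk sac and 1.52 in embryo), were also higher in both. Not every gene used as an arterial or Notch marker followed. Cxcr4, a chemokine receptor, had 60.8 and 46 TPM in yolk sac, 46.5 and 51.7 TPM in embryo and 97.7, 111 and 124 TPM in mesoderm. The Notch target Hes1 had 74.2 and 87 TPM in yolk sac, 52.6 and 72.2 TPM in embryo and 122, 171 and 162 TPM in mesoderm, both lower in both sources. Hey1, another Notch target, passed in embryo only, with 35.1 and 31.4 TPM in yolk sac, 63.1 and 70.8 TPM in embryo and 12.5, 32.8 and 28.7 TPM in mesoderm. The test of the difference between the sources passed for Hey1, but not when any 1 of the 4 endothelial libraries was left out.

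Of 16 venous, sinusoidal and lymphatic genes 11 were higher in both sources and 1 was lower (median 4.77). Stab2, the scavenger receptor of sinusoidal endothelium, had 1233 and 798 TPM in yolk sac endothelium, 32.6 and 67.5 TPM in embryo endothelium and 0, 0.01 and 0.01 TPM in mesoderm. The log2 fold change of Stab2 was 16.88 ± 0.52 in yolk sac and 12.57 ± 0.51 in embryo (adjusted p = 4.5e-09 and 2.6e-08). Its relative Stab1 had 914 and 662 TPM in yolk sac, 207 and 375 TPM in embryo and 0.041, 0.204 and 0.02 TPM in mesoderm. Both stabilins were below 1 TPM in mesoderm. The mannose receptor Mrc1 had 498 and 336 TPM in yolk sac, 19.7 and 39.5 TPM in embryo and 0.031, 0.031 and 0.01 TPM in mesoderm. The hyaluronan receptor Lyve1 had 2034 and 1796 TPM in yolk sac, 68.2 and 113 TPM in embryo and 0, 0.285 and 0.02 TPM in mesoderm. Stab1, Mrc1 and Lyve1 are also made by macrophages. All 4 genes were higher in yolk sac than in embryo, with log2 differences of 4.31 for Stab2, 1.39 for Stab1, 3.78 for Mrc1 and 4.36 for Lyve1. Of the 16 genes of the macrophage list 2 (Mrc1 and Pf4) were higher in yolk sac than in embryo, against 14.3% of all genes tested. The part of macrophages in these levels was not tested. Genes of lymphatic commitment were seen in the embryo. Prox1, the master factor of lymphatic endothelium, had 0.756 and 0.605 TPM in yolk sac, 6.74 and 13.3 TPM in embryo and 1.5, 0.835 and 0.878 TPM in mesoderm, higher in embryo and lower in yolk sac than in mesoderm. The lymphatic chemokine gene Ccl21a had 0 and 0 TPM in yolk sac, 25.7 and 39 TPM in embryo and 0, 0 and 0 TPM in mesoderm. Pdpn, a lymphatic surface protein that early mesoderm also carries, was lower in both sources with 22.3 and 12.4 TPM in yolk sac, 3.66 and 4.33 TPM in embryo and 18.6, 34.6 and 29.2 TPM in mesoderm, a call lost without yolk sac library 2 and with limma on TPM. Ccl21a was thus detected in the embryo libraries alone of the 7. Mmrn1, a multimerin of lymphatic endothelium and platelets, had 34.7 and 28.2 TPM in yolk sac, 103 and 141 TPM in embryo and 0, 0 and 0 TPM in mesoderm, at least 1662-fold higher in yolk sac and at least 6763-fold higher in embryo.

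Junction, flow and vasoregulatory genes were mostly higher in endothelium, and none of either list was lower in both sources. Of 16 junction and adhesion genes 11 were higher in both (median 2.82), among them Esam (11.39 in yolk sac and 11.14 in embryo), Icam2 (10.30 in yolk sac and 9.56 in embryo) and the protocadherin Pcdh12 (8.11 in yolk sac and 7.80 in embryo). Of 17 genes of flow response and vessel tone 15 were higher in both (median 4.38). Klf2, the factor induced by laminar flow, had 248 and 259.7 TPM in yolk sac, 207 and 229.7 TPM in embryo and 0.814, 1.17 and 1.32 TPM in mesoderm. By the test, the log2 fold change of Klf2 was 7.55 ± 0.20 in yolk sac and 7.39 ± 0.20 in embryo (adjusted p = 2.1e-09 and 2.8e-09). Nos3, the endothelial nitric oxide synthase, had 279 and 253 TPM in yolk sac, 201 and 238 TPM in embryo and 0.458, 0.428 and 0.368 TPM in mesoderm. Klf2 and Nos3 exceeded 200 TPM in every endothelial library. The endothelin receptor Ednrb had 25.6 and 24.5 TPM in yolk sac, 29.4 and 35.8 TPM in embryo and 0, 0 and 0.031 TPM in mesoderm. Thrombomodulin (Thbd), which restrains clotting, had 329 and 319.5 TPM in yolk sac, 55.4 and 79.4 TPM in embryo and 0.041, 0.224 and 0.092 TPM in mesoderm. Klf2, Nos3 and Ednrb passed no test between the sources, whereas Thbd was several times higher in yolk sac. Ptgis, the prostacyclin synthase, was lower in yolk sac and did not pass in embryo (-1.77 in yolk sac and -0.28 in embryo). The test of the difference between the sources passed for Ptgis, but not without yolk sac library 2 or embryo library 1. Of 8 genes of the apelin and adrenomedullin systems 7 were higher in both. The adrenomedullin receptor Calcrl had 334 and 280.1 TPM in yolk sac, 57.9 and 69.2 TPM in embryo and 0.132, 0.204 and 0.204 TPM in mesoderm. Its partner Ramp2 had 1085 and 1110.2 TPM in yolk sac, 788 and 753 TPM in embryo and 5.34, 1.61 and 2.26 TPM in mesoderm. The apelin receptor Aplnr had 531 and 449 TPM in yolk sac, 832 and 807 TPM in embryo and 19.9, 10.7 and 10.4 TPM in mesoderm. Ackr3, a scavenger receptor for adrenomedullin and Cxcl12, went the other way (-1.92 in yolk sac and -0.76 in embryo), a call that was lost without embryo library 1 or embryo library 2.

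Of 13 lipid uptake genes 10 were higher in both sources and 3 were lower (median 3.21). Gpihbp1, which carries lipoprotein lipase across capillaries, had 76.6 and 79.1 TPM in yolk sac, 36.7 and 37.9 TPM in embryo and 0, 0 and 0 TPM in mesoderm. The fatty acid translocase Cd36 had 150.4 and 126 TPM in yolk sac, 11.6 and 15.1 TPM in embryo and 0, 0.02 and 0.051 TPM in mesoderm. The fatty acid binding protein gene Fabp4 had 482 and 576 TPM in yolk sac, 53.8 and 45 TPM in embryo and 0.224, 0.967 and 0.082 TPM in mesoderm. Mesoderm was below 1 TPM for Gpihbp1, Cd36 and Fabp4. Fabp5, a relative of Fabp4, had 3034 and 3273 TPM in yolk sac, 375 and 281 TPM in embryo and 68.1, 131 and 84.4 TPM in mesoderm. The 4 genes were all higher in yolk sac than in embryo. Tcf15, a factor that activates fatty acid uptake genes in heart endothelium, had the opposite order, with 19.3 and 19.8 TPM in yolk sac, 93.2 and 109 TPM in embryo and 2.39, 2.48 and 1.37 TPM in mesoderm. The lower members included the endothelial lipase Lipg, with 0.818 and 0.271 TPM in yolk sac, 0.505 and 0.31 TPM in embryo and 13.7, 27.7 and 15.1 TPM in mesoderm, and Slc27a3 (-0.86 in yolk sac and -1.93 in embryo).

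The vessel wall was also represented. Of 19 basement membrane and collagen genes 16 were higher in both sources and 2 were lower (median 2.33). Col4a1, the main chain of basement membrane collagen, had 3431 and 2581 TPM in yolk sac, 1200 and 2181 TPM in embryo and 129, 158 and 172 TPM in mesoderm. Col15a1, a basement membrane zone collagen, had 267 and 192 TPM in yolk sac, 366 and 736 TPM in embryo and 0, 0.122 and 0.051 TPM in mesoderm. Col15a1 was higher in embryo than in yolk sac. Lama4, the laminin chain of endothelium, was higher than mesoderm by 3.66 in yolk sac and 4.80 in embryo. Lama5 (-0.95 in yolk sac and -2.84 in embryo) and Col5a1 (-0.88 in yolk sac and -3.20 in embryo) were lower, and both calls were lost without yolk sac library 2 and with limma on TPM. Of 18 integrin and adaptor genes 14 were higher and 1 lower (median 1.79). Itga2, a collagen receptor subunit, had 39 and 20 TPM in yolk sac, 24.4 and 45.5 TPM in embryo and 0.02, 0.051 and 0.071 TPM in mesoderm. Itga1, also a collagen receptor subunit, had 57.9 and 29.9 TPM in yolk sac, 23.6 and 31.9 TPM in embryo and 0.559, 1.25 and 0.929 TPM in mesoderm. Among 25 guidance genes 10 were higher and 4 lower in both. The semaphorin receptor Plxnd1 had 1056 and 839 TPM in yolk sac, 1030.5 and 1509 TPM in embryo and 57.5, 61 and 64.7 TPM in mesoderm. The ligand Sema3g had 292 and 195 TPM in yolk sac, 54.6 and 86.1 TPM in embryo and 0.397, 0.051 and 0.123 TPM in mesoderm. The Eph receptor Ephb4, a venous marker, had 305 and 272 TPM in yolk sac, 299 and 342 TPM in embryo and 49.5, 42.4 and 42.8 TPM in mesoderm. The 3 genes were higher in every endothelial library than in mesoderm. The lower genes were Epha1, Ephb2, Unc5b and Slit3, of which the Eph receptor Ephb2 had 1.16 and 1.79 TPM in yolk sac, 1.39 and 1.32 TPM in embryo and 12.2, 7.77 and 8.84 TPM in mesoderm. The call of Unc5b was lost with limma on TPM and in 5 of the 7 fits that left out 1 library. That of Slit3 was also lost with limma on TPM.

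**Figure D4:**
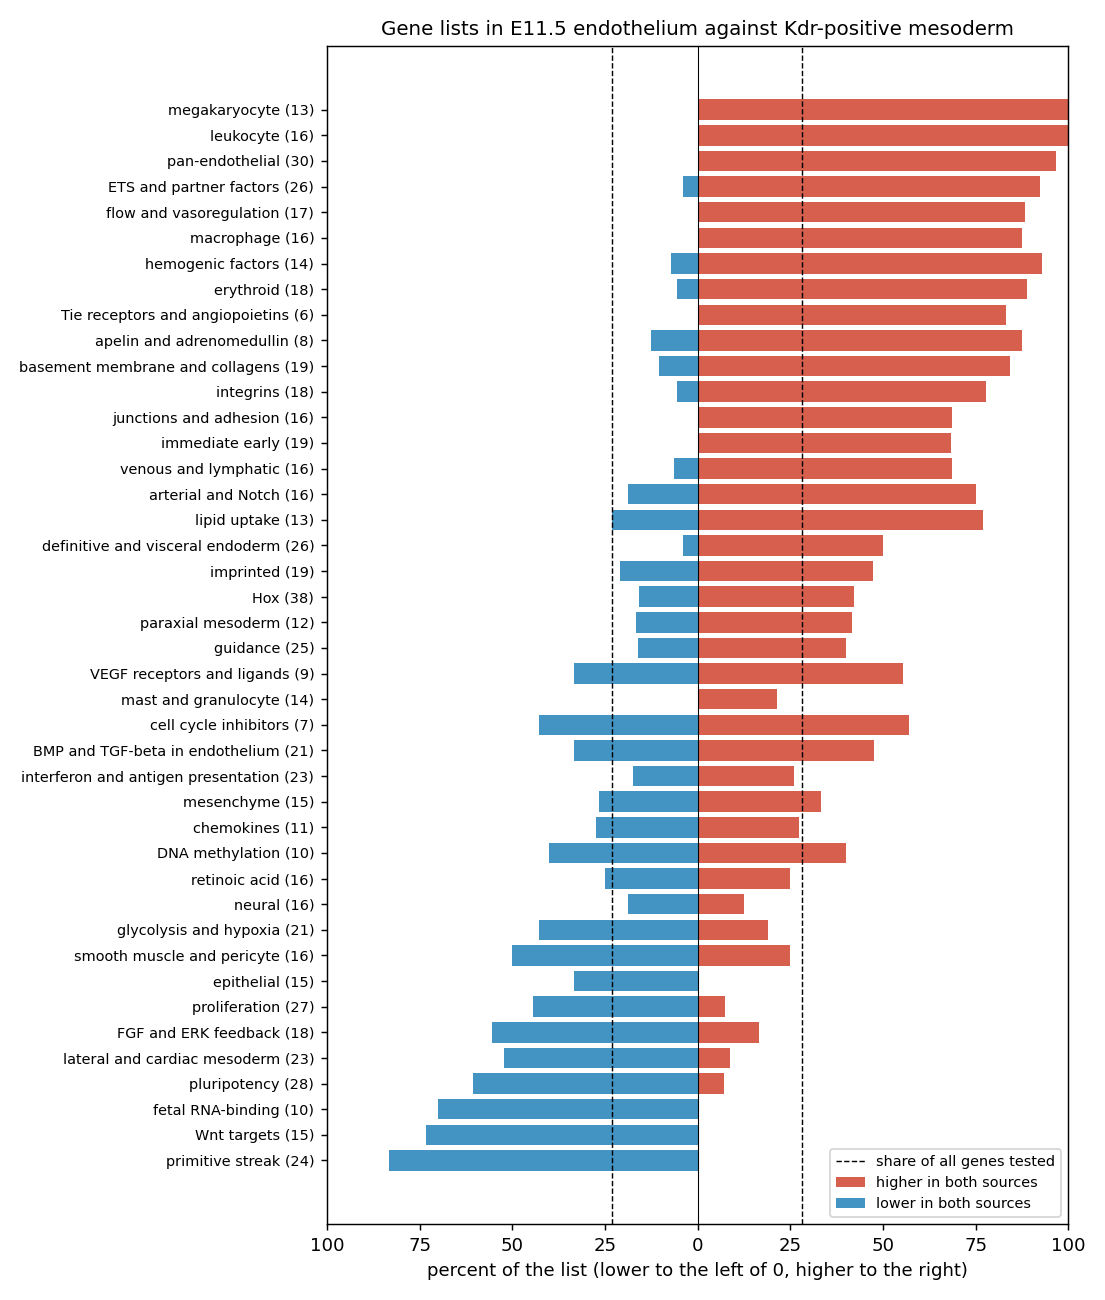
For each gene list (number of genes in parentheses), the red bar gives the percent of its genes higher in both sources of E11.5 endothelium and the blue bar, to the left, the percent lower in both. Dashed lines mark the same shares of all genes tested, 28.1% and 23.2%. Endothelial and blood lists extend to the right, and streak, Wnt target, RNA-binding and pluripotency lists to the left.

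Blood genes were higher in endothelium over whole lists, beside the macrophage and red cell marker sums given above. The 5 megakaryocyte markers summed to 158 and 131 TPM in yolk sac, 21.3 and 36.8 TPM in embryo and 1.93, 1.88 and 1.78 TPM in mesoderm. All 16 leukocyte genes, 14 of 16 macrophage genes, 16 of 18 erythroid genes and all 13 megakaryocyte genes were higher in both sources, with medians of 6.54, 7.87, 7.79 and 6.34 in the order given. Without embryo library 2, 9 of the 13 megakaryocyte genes were called. Vwf, Tal1, Mrc1, Itgb3, Gata1 and Itga2b also stand in endothelial, integrin or hemogenic lists. The embryonic beta-like globin gene Hbb-y had 2891 and 6600.1 TPM in yolk sac, 1392 and 17165 TPM in embryo and 0.692, 0.316 and 0 TPM in mesoderm. The embryonic alpha-like globin gene Hba-x had 1340.3 and 2262 TPM in yolk sac, 550.3 and 7133 TPM in embryo and 0, 0.092 and 0 TPM in mesoderm. Embryo library 2 was far above embryo library 1 for both, while mesoderm was below 1 TPM. The fitted log2 change of Hbb-y was 13.67 ± 1.39 in yolk sac and 14.58 ± 1.42 in embryo (adjusted p = 5.0e-05 and 4.7e-05). The complement gene C1qb, of macrophages, had 70.6 and 142 TPM in yolk sac, 78.7 and 97.3 TPM in embryo and 0, 0 and 0 TPM in mesoderm. Pf4, of platelets and macrophages, had 87.8 and 118 TPM in yolk sac, 31.6 and 40.9 TPM in embryo and 0.122, 0.112 and 0 TPM in mesoderm. Of the 16 macrophage genes 7 were at 0 TPM in all mesoderm libraries, among them C1qa, C1qb and C1qc.

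Factors of the endothelial to blood transition were also higher, with Runx1 the exception. Of 14 such genes 13 were higher in both sources and Runx1 was lower. Runx1, which the transition requires, had 4.38 and 4.43 TPM in yolk sac endothelium, 0.753 and 1.51 TPM in embryo endothelium and 9.8, 14.4 and 16.3 TPM in mesoderm. The log2 fold change of Runx1 was -2.04 ± 0.26 in yolk sac and -4.01 ± 0.29 in embryo (adjusted p = 6.3e-05 and 1.7e-06). All 3 mesoderm libraries lay above all endothelial libraries, and the yolk sac was higher than the embryo (log2 difference 1.97 ± 0.29, adjusted p = 9.6e-04). Mecom (Evi1), a factor of stem cells and endothelium, had 42.8 and 31.6 TPM in yolk sac, 24.3 and 39.9 TPM in embryo and 0.041, 0.071 and 0.092 TPM in mesoderm. Spi1 (PU.1), a myeloid factor, had 16.9 and 23.9 TPM in yolk sac, 11.4 and 17.5 TPM in embryo and 0.275, 0.255 and 0.031 TPM in mesoderm. Myb, a factor of blood progenitors, had 9.84 and 10.6 TPM in yolk sac, 1.95 and 6.94 TPM in embryo and 0.051, 0.316 and 0.123 TPM in mesoderm. Embryo library 1 was the lowest endothelial library for each of these 3. Gfi1, a repressor in the same transition, had 1.98 and 2.85 TPM in yolk sac, 0.464 and 0.981 TPM in embryo and 0.092, 0.081 and 0.02 TPM in mesoderm. These 4 were below 0.32 TPM in all mesoderm libraries. Kit, the stem cell factor receptor, had 43.7 and 31.6 TPM in yolk sac, 27.1 and 47.6 TPM in embryo and 6.16, 6.25 and 6.75 TPM in mesoderm.

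Genes of gastrulation were lower in endothelium almost throughout. Of 24 primitive streak genes 21 were tested, 20 were lower in both sources and none was higher (median -7.87). Mixl1, the homeobox factor of nascent mesendoderm, had 0 and 0 TPM in yolk sac endothelium, 0 and 0.083 TPM in embryo endothelium and 197, 411 and 369 TPM in mesoderm. Eomes, a T-box factor of the streak, had 0.331 and 0.334 TPM in yolk sac, 0.093 and 0.248 TPM in embryo and 127, 405 and 362 TPM in mesoderm. Mesp1, of the earliest cardiovascular mesoderm, had 0 and 0 TPM in yolk sac, 0.052 and 0 TPM in embryo and 85.3, 49.6 and 32.8 TPM in mesoderm. Neither approached 1 TPM in endothelium, and both varied more than 2-fold across mesoderm. Brachyury (T), the T-box factor of the streak, had 0.476 and 0.532 TPM in yolk sac, 5.92 and 12.3 TPM in embryo and 51.4, 74.4 and 53.2 TPM in mesoderm: the embryo libraries had higher levels than the yolk sac libraries did. The Nodal co-receptor Tdgf1 (Cripto) had 0 and 0 TPM in yolk sac, 0.072 and 0 TPM in embryo and 245, 481 and 318 TPM in mesoderm, at least 5868-fold lower in yolk sac. Tdgf1 was thus detected in 1 of the 4 endothelial libraries. Foxh1, the factor that carries Nodal signals, had 0.145 and 0.125 TPM in yolk sac, 0 and 0.496 TPM in embryo and 369, 443 and 417 TPM in mesoderm. The streak ligand Wnt3 had 0.062 and 0 TPM in yolk sac, 0.021 and 0.031 TPM in embryo and 64, 123 and 111 TPM in mesoderm. The FGF ligand Fgf8 had 0 and 0 TPM in yolk sac, 0 and 0.083 TPM in embryo and 51.7, 106 and 98.2 TPM in mesoderm. Foxh1, Wnt3 and Fgf8 were below 1 TPM in every endothelial library. Tbx6, a factor of presomitic mesoderm, was the tested member that did not pass, at 0.507 and 0.813 TPM in yolk sac, 0.196 and 1.53 TPM in embryo and 2.23, 2.03 and 1 TPM in mesoderm; it passed without embryo library 2. Vrtn, a regulator of vertebral number, was at 0 in all endothelial libraries and at 255, 239 and 276 TPM in mesoderm. Trim54, a muscle ring finger protein, was at 53, 143 and 92.6 TPM in mesoderm and Tmem28 at 13.4, 29.4 and 31.7 TPM. Both were at most 0.041 TPM in endothelium.

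The 3 mesoderm libraries were not alike for genes along the streak. Evx1 and Vrtn were even across them, with 96.3, 101 and 96.5 TPM for Evx1. Some posterior genes, Cdx2, Msgn1, Hand1 and Wnt8a, were highest in mesoderm from RB2, with 61.3, 15.3 and 9.69 TPM for Cdx2 and 521, 121 and 125 TPM for Hand1. The anterior genes Gsc, Otx2 and Lhx1, and also Fgf5, were lowest there, with 16.9, 68.9 and 69.8 TPM for Gsc and 0.478, 11.4 and 8.62 TPM for Fgf5. The streak ligands Wnt3 and Fgf8, with values given above, were lowest there too, so not all streak genes followed the posterior genes named. These genes were selected after their values were seen, and the lines differ in 1 library each, so no test was made.

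Of 23 genes of lateral and cardiac mesoderm 12 were lower in both sources and 2 were higher (median -1.91). Msx2, a homeobox target of BMP, had 0.59 and 0.334 TPM in yolk sac, 0.536 and 0.196 TPM in embryo and 401, 349 and 385 TPM in mesoderm. Its relative Msx1 had 3.28 and 3.54 TPM in yolk sac, 12.6 and 14.8 TPM in embryo and 355, 492 and 414 TPM in mesoderm. Hand1, of extraembryonic and lateral mesoderm, had 25.5 and 18.9 TPM in yolk sac, 0.144 and 0.145 TPM in embryo and 521, 121 and 125 TPM in mesoderm: near 0 in embryo and clearly present in yolk sac. Mesoderm made from RB2 was far above the other lines for Hand1. Tbx3, a T-box factor, had 12 and 7.34 TPM in yolk sac, 4.74 and 4.68 TPM in embryo and 95.4, 134 and 132 TPM in mesoderm. Pdgfra, the receptor that marks mesoderm turning away from the blood and vessel fate, had 3.4 and 2.19 TPM in yolk sac, 1.78 and 2.3 TPM in embryo and 9.99, 18.8 and 20.9 TPM in mesoderm. Neither gene overlapped between endothelium and mesoderm. Gata4 was lower too, with 4.74 and 13.2 TPM in yolk sac, 44.2 and 46.9 TPM in embryo and 74.7, 112 and 114 TPM in mesoderm, and its call was lost when either embryo library was left out. The exceptions were Mef2c and Ripply3, the second with 88.1 and 90.8 TPM in yolk sac, 91.9 and 80.6 TPM in embryo and 15.2, 20.7 and 14.3 TPM in mesoderm. Ripply3, a T-box corepressor, and Mef2c were higher in all 4 endothelial libraries. Foxf1, of splanchnic mesoderm, was lower in embryo and did not pass in yolk sac (109 and 89.8 TPM in yolk sac, 4.91 and 4.61 TPM in embryo and 99.6, 24.8 and 30.3 TPM in mesoderm). Of 16 smooth muscle and pericyte genes 8 were lower in both and 4 higher (median -1.16). The mural cell receptor Notch3 had log2 fold changes of -5.62 in yolk sac and -3.50 in embryo. Pdgfrb, the PDGF-B receptor of pericytes, had 3.84 and 3.49 TPM in yolk sac, 2.34 and 4.07 TPM in embryo and 21, 35.4 and 26.1 TPM in mesoderm. The calponin gene Cnn1 had 0.621 and 0.209 TPM in yolk sac, 0.309 and 0.238 TPM in embryo and 20.3, 18.4 and 16.2 TPM in mesoderm. These 3, used as markers of mural cells in formed vessels, were lower in every endothelial library than in any mesoderm library. The summed level of 5 mural cell markers (Acta2, Myh11, Cnn1, Rgs5 and Des) did not follow them in yolk sac. It was 118 and 134 TPM in yolk sac, 7.85 and 7.36 TPM in embryo and 57.8, 44.1 and 42 TPM in mesoderm. The 4 genes of the list that were higher in both sources included the pericyte potassium channel genes Kcnj8 (5.77 in yolk sac and 4.01 in embryo) and Abcc9 (9.89 in yolk sac and 9.62 in embryo), with Mcam and Myl9.

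Of 28 pluripotency genes 26 were tested, 17 were lower in both sources and 2 were higher (median -4.51). Pou5f1 (Oct4) had 0 and 0 TPM in yolk sac, 0 and 0 TPM in embryo and 127, 99.5 and 67.3 TPM in mesoderm, below the median of 1526 TPM in the 3 ES lines of the series. The pluripotency factor Nanog had 0.466 and 0.156 TPM in yolk sac, 0.34 and 0.393 TPM in embryo and 19.4, 13 and 13.7 TPM in mesoderm. Sall4, a zinc finger factor, had 4.47 and 2.26 TPM in yolk sac, 1.64 and 1.74 TPM in embryo and 91.3, 88.2 and 80.4 TPM in mesoderm. The members higher in endothelium were Klf2 and Klf4 (4.02 in yolk sac and 3.63 in embryo), which are also flow-responsive genes of endothelium. Of 10 fetal RNA-binding and growth genes 7 were lower in both and none was higher (median -1.14). Lin28a, which blocks let-7 maturation, had 13.4 and 7.39 TPM in yolk sac, 3.91 and 1.99 TPM in embryo and 423, 368 and 407 TPM in mesoderm. By the test, the log2 fold change of Lin28a was -5.56 ± 0.40 in yolk sac and -7.25 ± 0.44 in embryo (adjusted p = 1.3e-06 and 4.9e-07). Hmga1, a chromatin protein of proliferating cells, had 427 and 426 TPM in yolk sac, 709 and 655 TPM in embryo and 2325, 1946 and 2189 TPM in mesoderm. Both were lower in every endothelial library than in mesoderm. Trim71, a target of let-7, had 11.7 and 9.92 TPM in yolk sac, 6.29 and 8.18 TPM in embryo and 37.3, 35.2 and 32.3 TPM in mesoderm. Lin28b differed by source: it was lower in yolk sac, while embryo, at 9.28 and 12.4 TPM, did not pass against mesoderm at 11.7, 9.79 and 10.2 TPM.

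Of 15 Wnt target genes 11 were lower in both sources and none was higher (median -4.67). Axin2, a feedback inhibitor induced by Wnt in most tissues, had 1.06 and 0.918 TPM in yolk sac endothelium, 6.83 and 7.86 TPM in embryo endothelium and 107, 87.3 and 84.7 TPM in mesoderm. The fitted log2 change of Axin2 was -6.84 ± 0.24 in yolk sac and -3.89 ± 0.20 in embryo (adjusted p = 8.7e-09 and 1.4e-07). Lef1, the Wnt transcription factor, had 0.093 and 0.48 TPM in yolk sac, 22.6 and 20.3 TPM in embryo and 49.2, 51.3 and 47.9 TPM in mesoderm. Lef1 was close to 0 in yolk sac and intermediate in embryo. Its call was lost when the 4 endothelial libraries were fitted as 1 group and with the test against a 2-fold change. Sp5, a zinc finger target of Wnt, had 0.186 and 0.042 TPM in yolk sac, 0.32 and 0.227 TPM in embryo and 76.8, 79.8 and 106 TPM in mesoderm. The secreted inhibitor Dkk1 had 0.528 and 0.083 TPM in yolk sac, 0.258 and 0.506 TPM in embryo and 33.3, 51 and 41.5 TPM in mesoderm. Notum, an enzyme that inactivates Wnt proteins, had 0.197 and 0.083 TPM in yolk sac, 0.794 and 1.14 TPM in embryo and 17.6, 6.55 and 6.33 TPM in mesoderm. The mesoderm was above all endothelial libraries for each. The sources also differed, with 8 of the 15 genes lower in yolk sac than in embryo (9.53% of all genes) and none higher (14.3%). For Axin2 the yolk sac minus embryo difference was -2.96, and for Lef1 -6.54. Apcdd1 and Fzd10 exceeded mesoderm in embryo and fell below it in yolk sac, with 0.528 and 1.46 TPM in yolk sac, 70.8 and 76 TPM in embryo and 30.3, 12 and 11.6 TPM in mesoderm for Fzd10.

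**Figure D5:**
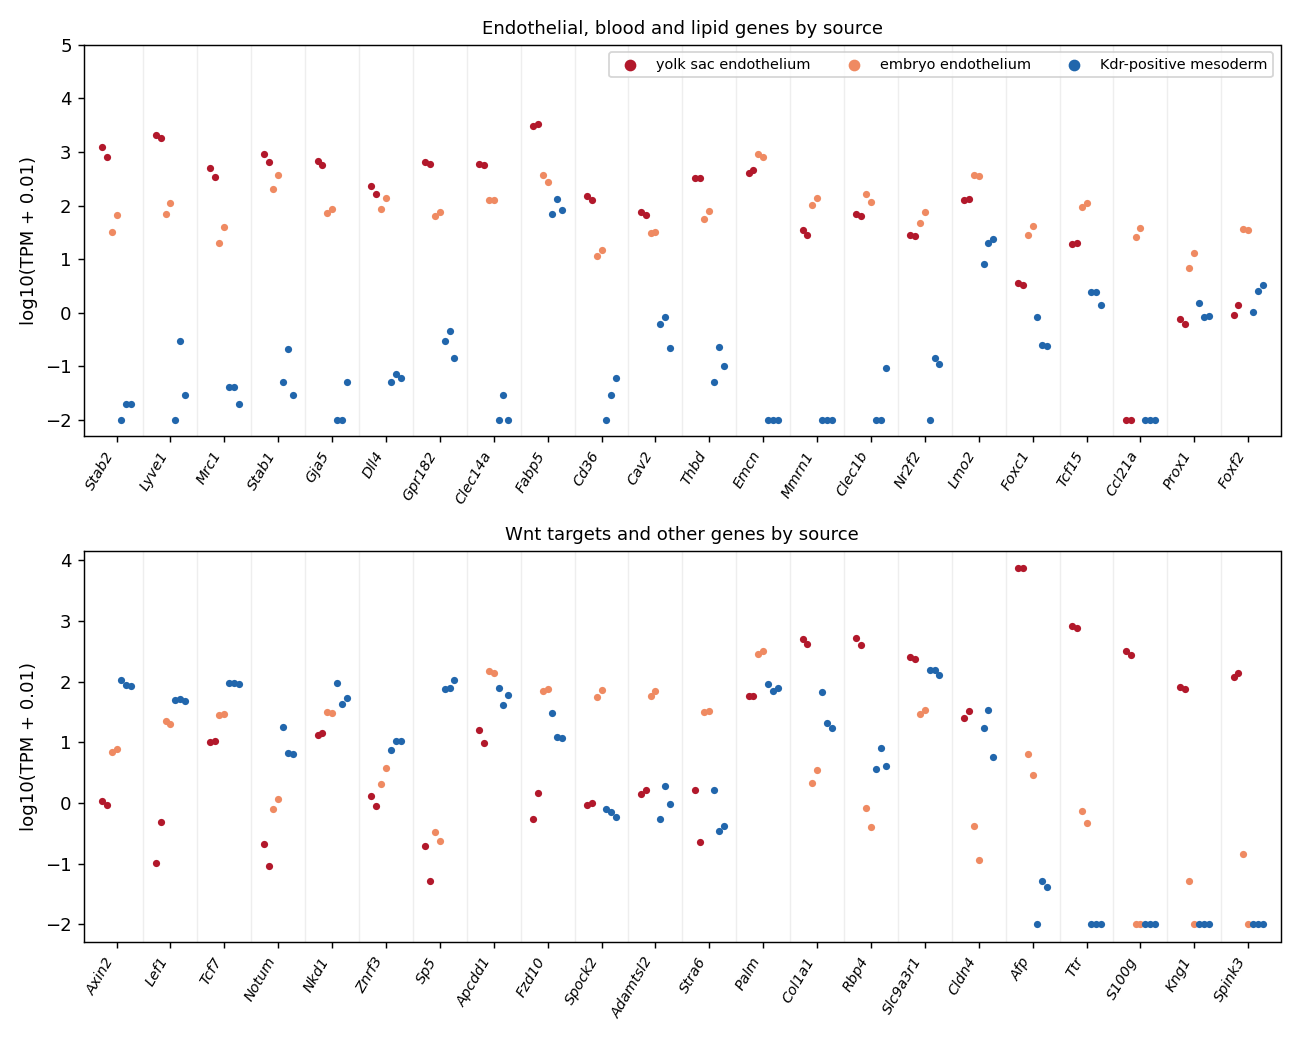
Levels per library as log10(TPM + 0.01), so that -2 stands for 0 TPM, for genes that differ between the endothelial sources. Red points are yolk sac endothelium, orange embryo endothelium and blue Kdr-positive mesoderm. Stab2, Lyve1, Mrc1 and the lipid genes lie higher in yolk sac, Emcn, Mmrn1, Tcf15 and Prox1 higher in embryo, and the Wnt targets Axin2 and Lef1 run from yolk sac, the lowest, through embryo to mesoderm.

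Of 18 genes of FGF signalling and ERK feedback 10 were lower in both sources and 3 were higher (median -0.85). The ETS factor Etv4 had 1.9 and 1.82 TPM in yolk sac, 20.2 and 25.9 TPM in embryo and 62.4, 55.1 and 64.3 TPM in mesoderm. The receptor Fgfr2 had 5.29 and 4.22 TPM in yolk sac, 2.44 and 2.65 TPM in embryo and 32, 10.2 and 15.5 TPM in mesoderm. Dusp6, Spry1 and Spry4, feedback inhibitors of the same pathway, were higher, with 229 and 235 TPM in yolk sac, 189 and 220.2 TPM in embryo and 37.7, 69.9 and 49.7 TPM in mesoderm for Dusp6. The call of Spry4 was lost without embryo library 2. Of 19 immediate early genes 13 were higher in both sources and none was lower (median 1.90). Fos, an AP-1 subunit, had 136 and 158 TPM in yolk sac, 47.7 and 79.4 TPM in embryo and 8.08, 7.54 and 6.28 TPM in mesoderm. Hspa1a, a heat shock gene, had 129 and 143 TPM in yolk sac, 18.6 and 52.8 TPM in embryo and 0.488, 1.36 and 1.08 TPM in mesoderm. Jun, the AP-1 partner of Fos, had 172 and 159 TPM in yolk sac, 118 and 163 TPM in embryo and 16, 37.3 and 24.7 TPM in mesoderm. All mesoderm libraries were below all endothelial libraries for these 3 genes. The retinoic acid genes had no common direction. Cyp26a1, which breaks down retinoic acid, had 1.1 and 0.511 TPM in yolk sac, 0.753 and 1.06 TPM in embryo and 165, 315 and 185 TPM in mesoderm. Cyp26b1, an enzyme of the same action, had 121 and 67.5 TPM in yolk sac, 28.5 and 35.6 TPM in embryo and 0.244, 0.784 and 0.909 TPM in mesoderm. The list had 4 genes higher and 4 lower among 16.

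Epithelial genes were lower in embryo endothelium and split in yolk sac. Of 15 such genes 5 were lower in both sources and none was higher, but 14 were higher in yolk sac than in embryo (14.3% of all genes tested). Krt8, a keratin of simple epithelia that mesoderm from ES cells also made, had 252 and 194 TPM in yolk sac, 2.13 and 0.372 TPM in embryo and 1007, 1017 and 804 TPM in mesoderm. Its partner keratin Krt18 had 220.2 and 207 TPM in yolk sac, 2.3 and 2.93 TPM in embryo and 678, 519 and 438 TPM in mesoderm. Both calls were lost when the 4 endothelial libraries were fitted as 1 group. E-cadherin (Cdh1) had 44.4 and 26.8 TPM in yolk sac, 0.392 and 0.093 TPM in embryo and 6.76, 16.7 and 5.09 TPM in mesoderm: above mesoderm in yolk sac and below it in embryo. In yolk sac these values stand beside visceral endoderm marker sums of 10060 and 9791 TPM, and the part of endoderm cells was not tested. Of 26 endoderm genes 13 were higher in both sources, 1 was lower, and 22 were higher in yolk sac than in embryo (14.3% of all genes tested). Alpha-fetoprotein (Afp) had 7392 and 7385 TPM in yolk sac endothelium, 6.35 and 2.83 TPM in embryo endothelium and 0, 0.041 and 0.031 TPM in mesoderm. Transthyretin (Ttr) had 816 and 777 TPM in yolk sac, 0.742 and 0.455 TPM in embryo and 0, 0 and 0 TPM in mesoderm. Both passed in embryo as well, where Afp averaged 4.59 TPM and Ttr 0.599. The count of 13 moved between 6 and 13 under the other settings tried. Sox17, a SoxF factor counted in this list and among the endothelial factors, had 181 and 172 TPM in yolk sac, 125 and 170 TPM in embryo and 0.671, 2.46 and 2.49 TPM in mesoderm, with no call between the sources.

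The genes called in opposite directions with the highest mean level were Col1a1, Rbp4, Palm, Slc9a3r1, Laptm4b and Vps72. Col1a1, the chain of fibrillar collagen made by mesenchyme, had 502 and 418 TPM in yolk sac, 2.13 and 3.53 TPM in embryo and 68.5, 20.6 and 17.6 TPM in mesoderm. Rbp4, the retinol carrier of endoderm and liver, had 517 and 397 TPM in yolk sac, 0.825 and 0.393 TPM in embryo and 3.62, 7.96 and 4.13 TPM in mesoderm. Slc9a3r1, a scaffold of microvilli, had 255 and 236 TPM in yolk sac, 28.9 and 33.5 TPM in embryo and 156, 158 and 129 TPM in mesoderm. These 3 exceeded mesoderm in yolk sac and fell below it in embryo, by yolk sac minus embryo differences of 7.30, 9.38 and 2.92 in the order given. Palm, a membrane-bound protein of cell processes, had 57.4 and 58.5 TPM in yolk sac, 283 and 326 TPM in embryo and 90.8, 70.2 and 79.5 TPM in mesoderm: the embryo was above and the yolk sac below mesoderm. Laptm4b (-0.42 in yolk sac and 0.50 in embryo) and Vps72 (-0.60 in yolk sac and 0.42 in embryo) had the same order with changes of under 1 on the log2 scale.

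Genes that passed in 1 source only, and also differed between the sources, were named by size. In yolk sac these were S100g, Kng1, Spink3, Serpina1c and Hsd17b2. S100g, a calcium-binding protein of absorptive epithelium, had 318 and 274 TPM in yolk sac, 0 and 0 TPM in embryo and 0, 0 and 0 TPM in mesoderm. The kininogen gene Kng1 had 82.4 and 76.8 TPM in yolk sac, 0.041 and 0 TPM in embryo and 0, 0 and 0 TPM in mesoderm. In embryo they were Ccl21a, Spock2, Cldn4, Adamtsl2 and Stra6. Spock2, a matrix proteoglycan, had 0.922 and 0.98 TPM in yolk sac, 56.4 and 74.1 TPM in embryo and 0.793, 0.703 and 0.582 TPM in mesoderm. Adamtsl2, a microfibril-associated protein, had 1.41 and 1.64 TPM in yolk sac, 58.3 and 70.4 TPM in embryo and 0.539, 1.92 and 0.97 TPM in mesoderm. Stra6, a retinol transporter, had 1.64 and 0.219 TPM in yolk sac, 32.1 and 33.1 TPM in embryo and 1.64, 0.336 and 0.408 TPM in mesoderm. These 3 were low in yolk sac and mesoderm alike. Cldn4, an epithelial claudin, is in the set because it was low in embryo, with 24.7 and 33.1 TPM in yolk sac, 0.402 and 0.103 TPM in embryo and 17.2, 33.9 and 5.83 TPM in mesoderm. The 5 yolk sac genes were at most 0.14 TPM in embryo and at 0 TPM in mesoderm.

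The endothelial genes with the highest levels that no list held were Tmsb4x, Vim, Serpinh1, Gnai2 and Sepp1. Thymosin beta 4 (Tmsb4x), an actin-binding peptide, had 3462 and 4616 TPM in yolk sac, 6855 and 4631 TPM in embryo and 154, 324 and 185 TPM in mesoderm. Selenoprotein P (Sepp1), the plasma carrier of selenium, had 2230.3 and 2054 TPM in yolk sac, 423 and 366 TPM in embryo and 0.59, 0.519 and 0.378 TPM in mesoderm. Vimentin (Vim) was already abundant in mesoderm, at 693, 1243 and 943 TPM, and was higher by 0.73 in yolk sac and 1.35 in embryo, a call lost without yolk sac library 2. Serpinh1 (1.64 in yolk sac and 1.79 in embryo), the collagen chaperone, and Gnai2 (1.62 in yolk sac and 1.79 in embryo), a G protein subunit, moved by similar amounts in both sources.

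Of 27 proliferation genes 12 were lower in both sources and 2 higher (median -0.51). With the test against a 2-fold change 1 was lower and 0 higher. Ccne1, the cyclin of entry into replication, had 33.4 and 32 TPM in yolk sac, 37 and 35.9 TPM in embryo and 119, 105 and 100.5 TPM in mesoderm. Rrm2, a ribonucleotide reductase subunit, had 131 and 124 TPM in yolk sac, 163 and 157 TPM in embryo and 263, 334 and 303 TPM in mesoderm. Mki67 (0.85 in yolk sac and 0.52 in embryo) and Ccnd3 (0.78 in yolk sac and 0.81 in embryo) were higher, and Cdk1, at 157 and 180.3 TPM in yolk sac, 201 and 134 TPM in embryo and 149, 156 and 162 TPM in mesoderm, did not pass. The call of Mki67 was lost with DESeq2 size factors, when each pair of groups was fitted alone, and without yolk sac library 1 or 2, embryo library 2, or mesoderm library 1 or 2. The cell cycle inhibitors divided, 4 higher and 3 lower of 7. Cdkn1c (p57), an imprinted inhibitor, had 635 and 294 TPM in yolk sac, 440.2 and 468 TPM in embryo and 97.5, 127 and 91.9 TPM in mesoderm. Cdkn1a (p21) had 54.5 and 60.8 TPM in yolk sac, 32.4 and 29.5 TPM in embryo and 184, 214 and 179 TPM in mesoderm. Cdkn2a (p16 and p19) had 7.57 and 8.97 TPM in yolk sac, 0.072 and 0 TPM in embryo and 49.4, 60.8 and 38.6 TPM in mesoderm. Of 21 genes of glycolysis and hypoxia 9 were lower in both and 4 higher (median -0.34). Hk2, an inducible hexokinase, had 7.12 and 7.11 TPM in yolk sac, 6.08 and 9.94 TPM in embryo and 44.2, 63.4 and 45.7 TPM in mesoderm. The constitutive hexokinase Hk1 had 110.4 and 81.2 TPM in yolk sac, 67.3 and 92.6 TPM in embryo and 9.13, 14.9 and 13.5 TPM in mesoderm. The enzyme genes Eno1 (-1.58 in yolk sac and -1.62 in embryo) and Pgam1 (-1.60 in yolk sac and -1.31 in embryo) were lower. The glucose transporter Slc2a1 had 361 and 274 TPM in yolk sac, 759 and 815 TPM in embryo and 277, 213 and 184 TPM in mesoderm, higher in embryo and not different by the test in yolk sac.

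Of 19 imprinted genes 9 were higher in both sources and 4 lower (median 1.88). Igf2, a fetal growth factor, had 6329 and 5535 TPM in yolk sac, 2345 and 2969 TPM in embryo and 227, 81.5 and 94.1 TPM in mesoderm. The log2 fold change of Igf2 was 5.03 ± 0.46 in yolk sac and 3.94 ± 0.44 in embryo (adjusted p = 7.2e-06 and 3.8e-05). Plagl1, a zinc finger regulator of the imprinted network, 174 and 136 TPM in yolk sac, 198 and 379 TPM in embryo and 0.62, 1.85 and 0.643 TPM in mesoderm. Every endothelial library exceeded every mesoderm library for both. Phlda2, a growth restraint gene of the placenta, had 91.9 and 77 TPM in yolk sac, 0.495 and 0.238 TPM in embryo and 2081, 1015 and 949 TPM in mesoderm. It was the largest decrease of the list in embryo, and mesoderm from RB2 was above the other lines. The de novo DNA methyltransferase Dnmt3b was lower (30.7 and 31.2 TPM in yolk sac, 31.7 and 43.7 TPM in embryo and 87, 97.2 and 97.2 TPM in mesoderm), Tet1 was lower (-2.82 in yolk sac and -1.54 in embryo), and Tet2 (2.63 in yolk sac and 2.67 in embryo) and Tet3 (2.06 in yolk sac and 1.86 in embryo) were higher. The 10 DNA methylation genes divided into 4 higher and 4 lower.

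Of 38 Hox genes 34 were tested, 16 were higher in both sources and 6 lower (median 1.46). The counting of reads among close relatives in this family is uncertain. Hoxa5 had 4.88 and 5.9 TPM in yolk sac, 15.5 and 16.1 TPM in embryo and 0.376, 0.234 and 0.123 TPM in mesoderm. Hoxa9 had 5.82 and 6.16 TPM in yolk sac, 6.61 and 9.67 TPM in embryo and 0, 0 and 0.02 TPM in mesoderm. Hoxb8 had 31.9 and 28.6 TPM in yolk sac, 8.01 and 10 TPM in embryo and 2.5, 1.31 and 0.756 TPM in mesoderm. Among the lower genes were Hoxd1, from the 3′ end of its cluster, and Hoxa13 and Hoxd13, from the 5′ ends of theirs. Hoxd1 had 0 and 0.355 TPM in yolk sac, 0.103 and 0.103 TPM in embryo and 10.2, 4.97 and 5.92 TPM in mesoderm. Within the endothelium, Hoxa3 (-2.29) and Hoxa5 (-1.61) were lower in yolk sac than in embryo, and Hoxb5 (1.83) and Hoxb8 (1.69) were higher.

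Among genes of interferon response and antigen presentation 6 of 23 were higher and 4 lower in both sources, shares close to those of all genes. Of the 23, 18 were higher in yolk sac than in embryo. Of all genes tested 14.3% were higher in yolk sac, the share to set beside this count and the mesenchyme count below. B2m, the light chain of class I molecules, had 821 and 827 TPM in yolk sac, 374 and 364 TPM in embryo and 38.6, 34.4 and 23.7 TPM in mesoderm. The interferon-induced gene Bst2 had 933 and 782 TPM in yolk sac, 142 and 152 TPM in embryo and 49.4, 33.1 and 34.9 TPM in mesoderm. Ifitm1, which is high in early mesoderm, had 16.8 and 24.8 TPM in yolk sac, 5.03 and 4.76 TPM in embryo and 325, 335 and 277 TPM in mesoderm. The chemokine list divided 3 and 3 among 11, with Ccr7 lower in endothelium (0.104 and 0.459 TPM in yolk sac, 0.443 and 0.486 TPM in embryo and 12.2, 12.5 and 16.3 TPM in mesoderm) and the chemokine-binding receptor Darc (Ackr1) higher (2.13 and 3.26 TPM in yolk sac, 13.9 and 12.3 TPM in embryo and 0.203, 0.061 and 0.051 TPM in mesoderm). Paraxial mesoderm genes (5 higher and 2 lower of 12), mesenchyme genes (5 and 4 of 15, with 9 higher in yolk sac than in embryo), neural genes (2 and 3 of 16), mast cell and granulocyte genes (3 and 0 of 14, 3 tested) and Y-linked genes (1 and 0 of 4) were called in both sources in these numbers.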

How the data were processed

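RNA was sequenced from 7 of the 31 libraries of the series used here: 2 of yolk sac endothelium, 2 of embryo endothelium and 3 of Kdr-positive mesoderm. Total RNA from Trizol lysates, cleaned on RNeasy columns with DNase, went into TruSeq v2 libraries, per the labels' protocols. The submitters' processing notes name CASAVA 1.8.2, Bowtie 0.12.9, RSEM 1.2.3 and build mm10. The annotation and whether reads were counted by strand are not given in the sources used here, so overlapping and antisense genes, and near-identical family members, cannot be told apart with certainty. The authors deposited expected counts per gene, estimated by RSEM, for 20314 genes. They also deposited TPM values that the file calls renormalised, by a method not given in the sources used here. Counts were tested and TPM was used for levels. No columns lacked a sample. Every pair of libraries within a group differed by more than sampling noise.

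Expected counts were rounded to whole numbers, genes were filtered with filterByExpr, libraries were scaled by TMM and edgeR 4.0.16 in R 4.3.3 fitted the 3 groups in 1 robust quasi-likelihood model. P-values were adjusted by Benjamini and Hochberg over 14391 genes for each contrast. The threshold was 0.05. The fit was tested on simulated data. The standard error is the size of the coefficient divided by the square root of F. A gene at 0 in a group was given a bound from a floor of 3 counts over that group, and list medians for the venous and lymphatic, leukocyte, macrophage, erythroid, megakaryocyte and streak genes were computed with such genes at their bound. Counting intervals and floors cover counting error only. Alternatives were DESeq2 1.42.0, limma 3.58.1 on log2(TPM + 0.1) and log2(TPM + 1), other scalings and filters, a replicate block, a test against a 2-fold change, and each library left out. Python 3.11.15, pandas 2.3.3, numpy 2.4.6 and matplotlib 3.10.9 made the tables and figures. Promoter windows came from RefSeq on GRCm38.p6.

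The members and gene lists were chosen with earlier results of these data known. The genes described were drawn by rule from the sorting antigens; the 8 largest changes each way among genes called in both sources, with a mean of at least 20 TPM and no overlap between groups; up to 4 per list with the largest change in its commoner direction and 1 the other way; the 6 most abundant genes called in opposite directions; the 5 largest called in 1 source; and the 5 most abundant in no list. Other members were named as examples after their values were seen.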

Additional observations from a re-analysis of the deposited data

Results flagged for a closer look

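The effect against mesoderm differed between the sources, by the test of yolk sac minus embryo, for the 6 most abundant genes called in opposite directions. The log2 difference was 7.30 for Col1a1, 9.38 for Rbp4, 2.92 for Slc9a3r1, -2.44 for Palm, -0.92 for Laptm4b and -1.02 for Vps72. Visceral endoderm and mesenchyme marker sums were high in the same yolk sac libraries, and their part was not tested.

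In the 5 endothelial cultures of day 3, a group outside the comparison, the gap between the highest library and the next was large relative to the range for 3 genes. Culture library 1 reached 1043 TPM for Cldn5, with 236 TPM in culture library 2 and 4.36 to 17.1 TPM in the other 3. The 2 highest libraries for Cldn5 were thus those of the RB lines. Culture library 5 reached 402 TPM for Hba-x and 997 TPM for Hbb-y, and culture library 3 was next, at 32.8 and 47.9 TPM. Chance marks about 1 in 20 groups of like values in this way, whereas these cultures were of different lines. Hba-x and Hbb-y, both globin genes, were flagged in the same library, so their flags are not independent.

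The count table holds rows for transcripts introduced into other cells of the series. The Mycn row had 61.04 expected counts in embryo library 1, above the highest mesoderm library at 29.97. Whether reads of the cell's own Mycn gene were assigned to this row was not tested.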

How the results depend on the processing

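The sources differ from mesoderm in stage, tissue, sort and culture together, and 2 libraries a source limit the precision. With a test against a 2-fold change, 2223 genes were higher and 1145 lower in both sources; yolk sac had 3254 higher and 1892 lower, embryo 2569 higher and 1588 lower, and yolk sac against embryo 935 higher and 294 lower. Leaving out each library in turn gave 3592 to 3919 genes higher and 2696 to 3267 lower in both, 4570 to 5394 higher and 3659 to 4829 lower in yolk sac, 4051 to 4510 higher and 3191 to 3885 lower in embryo, and 1245 to 2397 higher and 591 to 1483 lower in yolk sac against embryo. In that last contrast 1245 genes were higher and 604 lower without yolk sac library 1, 591 were lower without yolk sac library 2 and 866 without embryo library 1. DESeq2 called 4020 higher and 3519 lower in both. Of the genes called in both, 54.8% were higher; limma on TPM gave 64.8% with a pseudocount of 0.1 and 63.7% with 1, where the median of all genes was 0.28 and 0.23 on the log2 scale. Same-numbered libraries did not deviate together (r = -0.037 over 14391 genes, across genes, which are not replicates), and with the replicate block 3503 genes were higher and 2610 lower in both. Of 217 genes named by the rule, 184 kept their call in every setting that gave them a value, 33 lost it under at least 1 setting and 0 reversed; 192 of the 217 had a value in every setting. Of 96 further genes named as examples, 26 changed their call under at least 1 setting and 0 reversed. For genes called in opposite directions, or in 1 source only with a difference between the sources, the call followed was yolk sac against embryo. Their calls against mesoderm were not followed across settings. Under the replicate block, Pdpn, Nrp1, Mki67, Hey1 and Unc5b were among the genes that lost their call, and Tbx6 gained one. With globin genes left out of the fit the erythroid list had 9 genes higher in both by construction. Counts of short lists also moved: the endoderm list had 6 to 13 genes higher in both over all settings, the mesenchyme list 3 to 7, the megakaryocyte list 9 to 13 with 9 without embryo library 2, and the epithelial list 2 to 5 lower, the neural list 1 to 3 lower, and the retinoic acid, interferon and guidance lists 2 to 5 lower. The proliferation list had 1 to 14 genes lower in both, the FGF and ERK list 4 to 10, and the glycolysis and hypoxia list 3 to 10. The integrin list had 7 to 15 genes higher in both, the basement membrane list 11 to 16 and the immediate early list 9 to 14. From the proliferation list to the immediate early list, each low end came from the test against a 2-fold change.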
